A study of Mus musculus with 12 samples.

Results

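The 10 genes described here, *Procr*, *Esam*, *Podxl*, *Cd34*, *Emcn*, *Slamf1*, *Cd48*, *Adgrg1*, *Adgrl4* and *Ly6a*, encode surface proteins that are used to mark hematopoietic stem cells (HSCs) or that belong to the sialomucins, heavily sialylated mucin-like proteins. They were chosen by name from the 55291 genes of the count table, with earlier results of these data known, and all 10 had enough reads to be tested. RNA was sequenced from Lin-cKit+ (LK) bone marrow cells, selected for the receptor cKit after cells with markers of mature lineages had been removed, with 1 library from each of 12 C57BL/6 mice at 12 months of age. The 3 WT mice were compared with 3 Kdm6bΔ/+ mice, which lack 1 allele of the H3K27 demethylase gene *Kdm6b*, with 3 Asxl1Y588XTg mice, which carry a transgene for truncated ASXL1 and were in the preleukemic phase, and with 3 Asxl1Y588XTg Kdm6bΔ/+ mice, which carry both changes. The deletion is made by *Mx1Cre*, a recombinase that is switched on in blood cells and several other tissues by pI:pC, a double-stranded RNA that triggers interferon. Whether the WT and Asxl1Y588XTg mice of these libraries also carried *Mx1Cre* or received pI:pC, and which promoter drives the transgene, are not given in the sources used here.

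HSCs are a small minority of LK cells, most of which are committed progenitors. In mice, HSCs are isolated as cells that carry SLAMF1 (CD150), PROCR (CD201), ESAM and LY6A (Sca-1) and that lack CD48, while CD34 is low or absent on long-term HSCs and high on most progenitors. Many of these proteins are shared with endothelial cells, from which HSCs arise in the embryo: PODXL, CD34 and EMCN are sialomucins of the vessel wall, ESAM sits at endothelial junctions, and PROCR and ADGRL4 are also endothelial receptors. In bulk RNA, a change in the number of cells that carry a transcript and a change in its amount per cell cannot be told apart.

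The libraries held 14451522 to 23482563 counted reads each, and differences between mice of 1 genotype exceeded counting noise, with chi-square values per degree of freedom from 12.5 to 22.5 where counting noise alone gives 1. *Kdm6b* was lower in each Kdm6bΔ/+ library (1346 to 1622 normalized counts, which are counts scaled to a common library size) than in each WT library (1869 to 2372), and lower in each Asxl1Y588XTg Kdm6bΔ/+ library (1649 to 1909) than in each Asxl1Y588XTg library (2187 to 2303). The gene-level count of *Asxl1* did not separate the genotypes with the transgene from WT (2906 to 3060.4 in Asxl1Y588XTg and 2545 to 3081 in WT), so it does not check that label. *Kit* had 5029 to 8384 raw counts in every library, while a list of 10 neutrophil genes took between 49534 and 76199 CPM (counts scaled by the library total) in each library, so transcripts of maturing neutrophils were present in all of them. Transcripts of Y-linked genes were found in 0 of 3 WT, 2 of 3 Kdm6bΔ/+, 1 of 3 Asxl1Y588XTg and 3 of 3 Asxl1Y588XTg Kdm6bΔ/+ libraries, so sex was not balanced over the genotypes.

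All 10 genes are protein coding, and they lie on 7 chromosomes of the GRCm38 (mm10) mouse genome. *Cd48*, *Slamf1* and *Cd34* lie on chromosome 1, *Emcn* and *Adgrl4* on chromosome 3, *Procr* on chromosome 2, *Podxl* on chromosome 6, *Adgrg1* on chromosome 8, *Esam* on chromosome 9 and *Ly6a* on chromosome 15. *Cd34* is overlapped by the antisense gene *Gm16897* and *Cd48* by the unclassified gene *Gm37010* in GENCODE vM21, and because the strand setting of the counting is not given, reads in the shared stretches are uncertain. *Ly6a* has close paralogs in the Ly6 cluster, with which short reads can be shared. Of the 10 genes, 7 matched an entry among 32851 RefSeq promoters (GRCm38.p6), and *Esam*, *Podxl* and *Ly6a* did not.

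The 250 bases before the start are shown for a pair of genes that rose with the transgene (*Slamf1* and *Adgrl4*) and a pair that did not (*Cd34* and *Cd48*), so that their letters can be compared beside the values that follow. Capitals mark matches on either strand to the GATA motif, spelled AGATAA or with a first letter T as TGATAA, each also taken with a last letter G, and to the ETS motif, spelled AGGAAG or with a first letter C as CGGAAG. In the member windows no match of one motif overlapped a match of the other. The *Slamf1* window is chr1:171766882-171767131, the *Adgrl4* window chr3:151437632-151437881, the *Cd34* window chr1:194938571-194938820 and the *Cd48* window chr1:171681742-171681991, all on the plus strand of GRCm38.p6.
Slamf1: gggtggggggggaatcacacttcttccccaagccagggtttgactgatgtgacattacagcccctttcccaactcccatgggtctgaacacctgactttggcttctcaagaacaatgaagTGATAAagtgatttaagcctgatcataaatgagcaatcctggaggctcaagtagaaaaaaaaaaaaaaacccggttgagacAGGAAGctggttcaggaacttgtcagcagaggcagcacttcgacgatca
Adgrl4: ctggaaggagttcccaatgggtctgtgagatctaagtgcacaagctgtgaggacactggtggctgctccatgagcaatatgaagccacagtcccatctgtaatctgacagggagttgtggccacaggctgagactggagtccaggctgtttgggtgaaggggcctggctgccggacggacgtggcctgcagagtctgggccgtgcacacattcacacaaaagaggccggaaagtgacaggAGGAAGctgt
Cd34: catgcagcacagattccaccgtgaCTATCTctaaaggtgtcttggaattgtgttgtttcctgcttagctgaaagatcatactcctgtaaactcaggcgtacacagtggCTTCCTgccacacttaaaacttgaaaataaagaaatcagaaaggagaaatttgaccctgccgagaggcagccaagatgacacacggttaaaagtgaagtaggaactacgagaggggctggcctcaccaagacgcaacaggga
Cd48: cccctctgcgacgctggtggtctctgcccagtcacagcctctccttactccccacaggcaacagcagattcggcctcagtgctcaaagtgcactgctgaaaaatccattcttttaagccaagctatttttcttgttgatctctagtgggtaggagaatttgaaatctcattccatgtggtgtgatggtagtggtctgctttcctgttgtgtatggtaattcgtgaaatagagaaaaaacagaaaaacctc

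*Slamf1* and *Cd34* each held 1 GATA and 1 ETS match, *Adgrl4* held 1 ETS match and no GATA match, and *Cd48* held neither. Of the other windows, *Procr* held 1 ETS match, *Emcn* held 2, and neither of the 2 *Adgrg1* windows held any. Over all 32851 promoters, 26.5% held a GATA match and 39.2% an ETS match, so a match in any single window is common. *Cd34* held the same number of each motif as *Slamf1*.

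The genes spanned a wide range of levels. Per length, in RPKM (reads for each kilobase of exon, scaled to library size), the median level in WT was 48.0 for *Adgrg1*, 40.1 for *Cd48*, 19.5 for *Adgrl4*, 19.2 for *Cd34* and 3.18 for *Ly6a*. The other 5 were below 1, with medians of 0.909 for *Esam*, 0.825 for *Procr*, 0.487 for *Podxl*, 0.228 for *Slamf1* and 0.172 for *Emcn*. In this order, *Adgrl4* and *Cd34* overlapped in their WT ranges, as did *Esam* with *Procr* and *Procr* with *Podxl*, whereas the other neighbours did not. In Asxl1Y588XTg the order at the top was unchanged, *Adgrg1* standing at 97.0 and *Cd48* at 37.3, but *Procr* (5.54), *Esam* (4.80) and *Podxl* (3.29) were above 1 in every library. For these 5 genes and *Ly6a* the WT libraries held between 6 and 69 raw counts, which limits the precision of their folds.

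**Figure D1:**
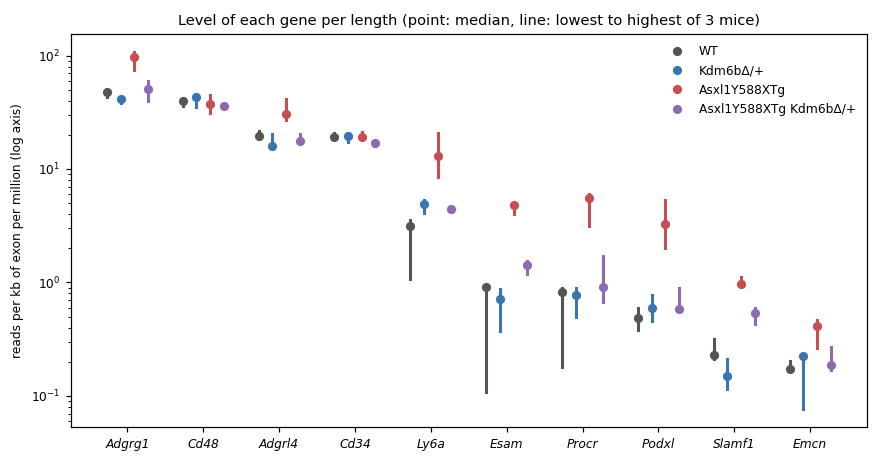
Level of each of the 10 genes in RPKM, reads for each kilobase of exon scaled to library size (logarithmic vertical axis), with genes ordered by their WT median. Points are medians and lines run from the lowest to the highest of 3 mice. *Adgrg1*, *Cd48*, *Adgrl4* and *Cd34* stand above the other 6 by their medians in each genotype, and *Procr*, *Esam* and *Podxl* are raised in Asxl1Y588XTg.

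The first question was which of the surface genes differ in LK cells with truncated ASXL1. Called genes are those with a fold change above 1.5 and an adjusted p under 0.05 in edgeR's quasi-likelihood test. Against WT, 5 of the 10 genes rose in Asxl1Y588XTg (*Procr*, *Podxl*, *Slamf1*, *Adgrg1* and *Adgrl4*) and 0 fell, where 250 of all 15825 genes tested (1.58%) rose. In 8 of the 10, each Asxl1Y588XTg library stood above each WT library, which was so for 10.5% of all genes, and the exceptions were *Cd34* and *Cd48*. The median log2 fold change was 1.54 over the 10 genes and -0.01 over all genes. Because the 10 genes were chosen with earlier results of these data known, the shares over all genes, here and below, are no test of the set. The count of 5 rested in part on single libraries: it was 3 (*Podxl*, *Slamf1* and *Adgrg1*) without WT replicate 2, without WT replicate 3, without Asxl1Y588XTg replicate 1 and without Asxl1Y588XTg replicate 2. Those 3 genes were called under each of the 14 alternative settings tried.

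The second question was whether loss of 1 *Kdm6b* allele changes these genes on the Asxl1Y588XTg background. Against Asxl1Y588XTg, 3 of the 10 genes fell in Asxl1Y588XTg Kdm6bΔ/+ (*Procr*, *Esam* and *Slamf1*) and 0 rose, where 252 of all 15825 genes (1.59%) fell. Each Asxl1Y588XTg Kdm6bΔ/+ library stood below each Asxl1Y588XTg library for 8 of the 10, *Emcn* and *Cd48* being the exceptions, against 14.1% of all genes. The median log2 fold change was -0.91 over the 10 genes and -0.00426 over all. This comparison shares its Asxl1Y588XTg libraries with the comparison against WT. A rise there and a fall here, for these genes and for the lists below, are therefore not independent results. The count of calls moved widely here: it was 1 (*Esam*) without Asxl1Y588XTg Kdm6bΔ/+ replicate 1 or without replicate 2 of the same genotype, and 5 without Asxl1Y588XTg replicate 3. With the replicate number as a block it was 1, although the numbers did not pair the libraries. DESeq2 called 7, where it called 391 of all 15825 genes lower. With a term for Y-linked transcripts in the fit of all 4 genotypes the count was 3, but of *Podxl*, *Adgrg1* and *Adgrl4*.

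**Figure D2:**
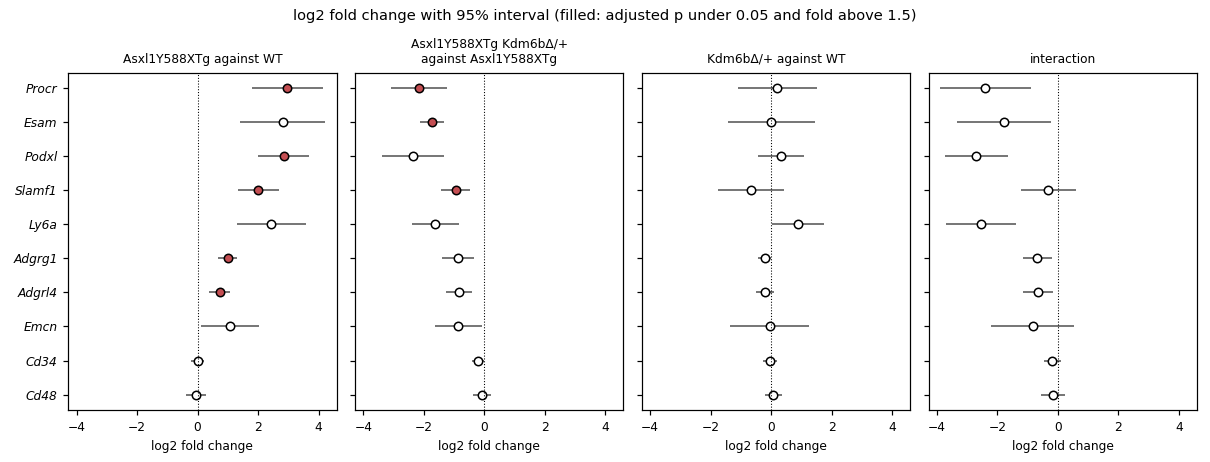
Log2 fold change of each gene (horizontal axis) in the comparisons of Asxl1Y588XTg with WT, Asxl1Y588XTg Kdm6bΔ/+ with Asxl1Y588XTg, and Kdm6bΔ/+ with WT, and in the interaction. Lines are 95% intervals of the edgeR fit, and filled points passed the test. Filled points appear to the right of 0 for 5 genes in the first comparison and to the left of 0 for 3 genes in the second.

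*Procr* encodes the endothelial protein C receptor, which binds the anticoagulant protease protein C. Its normalized counts were 6.40, 29.5 and 32.1 in WT, 17.6, 27.8 and 32.2 in Kdm6bΔ/+, 217, 198 and 112 in Asxl1Y588XTg, and 32.5, 24.0 and 60.9 in Asxl1Y588XTg Kdm6bΔ/+. The Asxl1Y588XTg libraries stood above those of every other genotype, which overlapped among themselves. *Procr* rose 7.81-fold in Asxl1Y588XTg against WT (log2 fold change 2.97, SE 0.51, edgeR adjusted p = 0.0230) and fell in Asxl1Y588XTg Kdm6bΔ/+ against Asxl1Y588XTg (log2 fold change -2.16, SE 0.38, edgeR adjusted p = 0.0375). WT replicate 1 was the lowest library of *Procr*, *Esam* and *Ly6a*, and without it the log2 fold changes in Asxl1Y588XTg against WT were 2.50 for *Procr*, 2.29 for *Esam* and 2.06 for *Ly6a*.

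*Esam* encodes an immunoglobulin-like adhesion protein of endothelial junctions, platelets and HSCs. In WT its normalized counts were 5.49, 45.9 and 49.2, in Kdm6bΔ/+ 18.8, 44.6 and 36.3, in Asxl1Y588XTg 242, 259 and 203, and in Asxl1Y588XTg Kdm6bΔ/+ 71.6, 60.0 and 77.4. No library of Asxl1Y588XTg Kdm6bΔ/+ overlapped any other genotype: all 3 lay between the highest WT or Kdm6bΔ/+ value and the lowest Asxl1Y588XTg value. The difference between Asxl1Y588XTg and WT had a log2 fold change of 2.82 (SE 0.59) and missed the threshold (edgeR adjusted p = 0.0750). It passed without WT replicate 1, under DESeq2, without the expression filter and in both fits of all 4 genotypes. *Esam* fell 3.32-fold in Asxl1Y588XTg Kdm6bΔ/+ against Asxl1Y588XTg (log2 fold change -1.73, SE 0.17, edgeR adjusted p = 0.00162).

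Among the sialomucins, *Podxl*, which encodes podocalyxin, an anti-adhesive relative of CD34, rose in Asxl1Y588XTg. Normalized counts of *Podxl* were 57.6, 37.1 and 47.1 in WT, 57.8, 74.4 and 44.6 in Kdm6bΔ/+, 318, 517 and 194 in Asxl1Y588XTg, and 56.1, 56.0 and 86.7 in Asxl1Y588XTg Kdm6bΔ/+. The 3 Asxl1Y588XTg libraries lay above the other 9, among which the genotypes overlapped. *Podxl* rose 7.19-fold in Asxl1Y588XTg against WT (log2 fold change 2.85, SE 0.36, edgeR adjusted p = 0.00539). Its value in Asxl1Y588XTg Kdm6bΔ/+ against Asxl1Y588XTg was -2.36 (log2 fold change, SE 0.41, edgeR adjusted p = 0.0535), just outside the threshold, and 6 of 14 alternative settings called it.

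*Cd34*, the founding member of that family, was called in none of the comparisons. Its normalized counts were 2463, 2466 and 2639 in WT, 2497, 2211 and 2675 in Kdm6bΔ/+, 2738, 2445 and 2425 in Asxl1Y588XTg, and 2166, 2045 and 2319 in Asxl1Y588XTg Kdm6bΔ/+. WT, Kdm6bΔ/+ and Asxl1Y588XTg overlapped, and the double mutant libraries lay below all WT and all Asxl1Y588XTg libraries. The log2 fold change in Asxl1Y588XTg against WT was 0.00543, with a 95% interval from -0.17 to 0.18. In Asxl1Y588XTg Kdm6bΔ/+ it was -0.20 against Asxl1Y588XTg (SE 0.079, edgeR adjusted p = 0.242) and -0.20 against WT (SE 0.080, edgeR adjusted p = 0.697), and neither passed.

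*Emcn* encodes endomucin, a sialomucin of venous and capillary endothelium that is also found on HSCs. It was the lowest of the 10 in WT, with 19.2, 16.4 and 16.0 normalized counts, and had 21.4, 21.8 and 7.27 in Kdm6bΔ/+, 39.2, 44.3 and 25.3 in Asxl1Y588XTg, and 17.7, 16.0 and 25.8 in Asxl1Y588XTg Kdm6bΔ/+. The Asxl1Y588XTg libraries lay above WT and Kdm6bΔ/+, while the lowest of them overlapped the highest double mutant library. The log2 fold change in Asxl1Y588XTg against WT was 1.06 with a 95% interval from 0.14 to 1.99, and it did not pass the test (edgeR adjusted p = 0.415).

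*Slamf1* encodes CD150, the SLAM receptor that is kept on HSCs and lost on most progenitors. Normalized counts were 24.7, 22.9 and 34.2 in WT, 16.3, 22.8 and 12.5 in Kdm6bΔ/+, 106, 104 and 122 in Asxl1Y588XTg, and 58.3, 47.0 and 64.0 in Asxl1Y588XTg Kdm6bΔ/+. Thus no pair of genotypes overlapped for this gene, and the double mutant lay between WT and Asxl1Y588XTg. *Slamf1* rose 4.02-fold in Asxl1Y588XTg against WT (log2 fold change 2.01, SE 0.29, edgeR adjusted p = 0.00835) and fell in Asxl1Y588XTg Kdm6bΔ/+ against Asxl1Y588XTg (log2 fold change -0.95, SE 0.21, edgeR adjusted p = 0.0453).

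*Cd48*, whose product is the ligand of CD244 and is found on progenitors and mature cells rather than HSCs, was called in none of the comparisons, by edgeR or by DESeq2. It had 755, 843 and 840 normalized counts in WT (replicates 1 to 3), 896, 732 and 926 in Kdm6bΔ/+, 936, 653 and 781 in Asxl1Y588XTg, and 723, 751 and 756 in Asxl1Y588XTg Kdm6bΔ/+. All 4 genotypes overlapped. The log2 fold change in Asxl1Y588XTg against WT was -0.04 with a 95% interval from -0.34 to 0.26, so that a rise like that of *Slamf1* lay outside the interval.

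Both adhesion G protein-coupled receptors moved, at levels far above those of the rarer markers. *Adgrg1* encodes GPR56, a receptor of HSCs and early progenitors, and had 4576, 4106 and 4619 normalized counts in WT, 3615, 3950.2 and 3963 in Kdm6bΔ/+, 9262, 10185 and 7049.8 in Asxl1Y588XTg, and 4829, 3769 and 5725 in Asxl1Y588XTg Kdm6bΔ/+. Its Asxl1Y588XTg libraries were the 3 highest, the double mutant overlapped WT and Kdm6bΔ/+, and Kdm6bΔ/+ lay below WT. *Adgrg1* rose 1.99-fold in Asxl1Y588XTg against WT (log2 fold change 0.99, SE 0.12, edgeR adjusted p = 0.00501), the smallest adjusted p-value of the 10 genes. Its log2 fold change in Asxl1Y588XTg Kdm6bΔ/+ against Asxl1Y588XTg, -0.87 (SE 0.20), did not pass (edgeR adjusted p = 0.106).

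*Adgrl4*, which encodes the endothelial receptor ELTD1, had 1479, 1737 and 1576 normalized counts in WT, 1231.5, 1281 and 1641 in Kdm6bΔ/+, 2452, 3308 and 2193 in Asxl1Y588XTg, and 1419, 1338 and 1633 in Asxl1Y588XTg Kdm6bΔ/+. As for *Adgrg1*, the Asxl1Y588XTg libraries were the 3 highest, and the other genotypes overlapped. It rose 1.66-fold in Asxl1Y588XTg against WT (log2 fold change 0.73, SE 0.14, edgeR adjusted p = 0.0388), and its log2 fold change of -0.84 (SE 0.16) in Asxl1Y588XTg Kdm6bΔ/+ against Asxl1Y588XTg stood just outside the threshold (edgeR adjusted p = 0.0574).

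*Ly6a* encodes Sca-1, a lipid-anchored protein of HSCs that is also induced by interferon. Normalized counts of *Ly6a* were 22.9, 75.4 and 67.4 in WT, 86.7, 112 and 104 in Kdm6bΔ/+, 442, 274 and 180.3 in Asxl1Y588XTg, and 93.7, 94.0 and 99.0 in Asxl1Y588XTg Kdm6bΔ/+. Asxl1Y588XTg was the highest genotype and WT the lowest, and Kdm6bΔ/+ and the double mutant overlapped between them. The log2 fold change in Asxl1Y588XTg against WT was 2.44 (SE 0.48) and missed the threshold (edgeR adjusted p = 0.0540), as did the value of -1.63 (SE 0.32) in Asxl1Y588XTg Kdm6bΔ/+ against Asxl1Y588XTg (edgeR adjusted p = 0.0559). Asxl1Y588XTg replicate 1, the highest library for *Ly6a*, also had the highest sum of 16 interferon-stimulated genes, 415 CPM, where the other 2 Asxl1Y588XTg libraries had 214 and 216 and WT had 211 to 249. The same library stood apart from these 2 in the sums of T and NK cell genes (86.1 CPM against 22.6 and 26.8), monocyte and macrophage genes (465 against 234 and 239.6) and B cell genes (154 against 70.2 and 50.3). The part of interferon or of these cells in the level of *Ly6a* was not tested. Without that library the log2 fold change in Asxl1Y588XTg Kdm6bΔ/+ against Asxl1Y588XTg was -1.23 and the gene was called. In Asxl1Y588XTg against WT, *Ly6a* without that library had a log2 fold change of 2.05 and was not called (edgeR adjusted p = 0.0914).

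**Figure D3:**
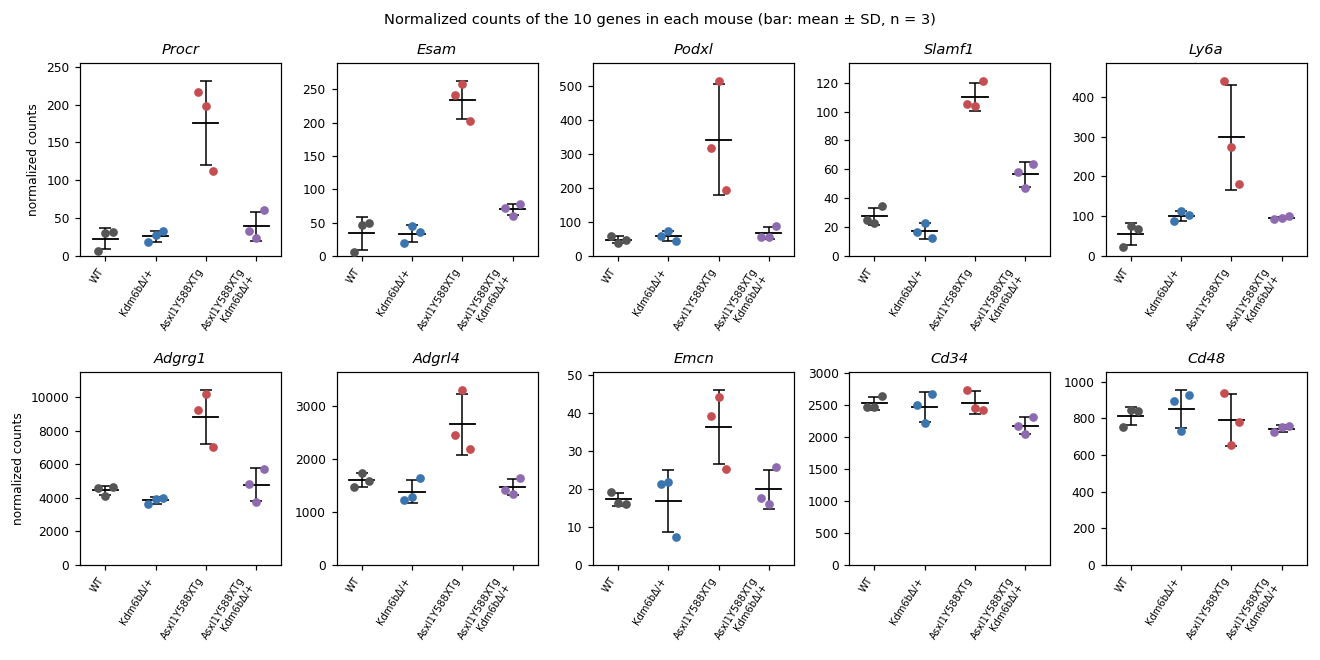
Normalized counts of the 10 genes (vertical axes, each from 0) in each of the 3 mice of the 4 genotypes. Points are mice and bars the mean ± SD. Asxl1Y588XTg mice stand above WT mice in the panels of 8 genes, whereas those 2 genotypes overlap for *Cd34* and *Cd48*.

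On the WT background, the loss of 1 *Kdm6b* allele called 0 of the 10 genes by edgeR (15 of all 15825 genes, 0.0948%, were called), and DESeq2 called 0 as well. At an unadjusted p under 0.05 stood 2 of the 10, *Adgrg1* (log2 fold change -0.21, SE 0.082) and *Ly6a* (0.88, SE 0.38), against 3.49% of all genes. This count was 0 without WT replicate 1 and 0 without Kdm6bΔ/+ replicate 1, and it was 1 without WT replicate 3 or without Kdm6bΔ/+ replicate 2. Without WT replicate 1 the value of *Ly6a* was 0.50. In this comparison 1 of 10 erythroid genes was called lower, and 4 of 9 T and NK cell genes were lower at an unadjusted p under 0.05; their part in these values was not tested. *Ly6a* was higher in each Kdm6bΔ/+ library than in each WT library (4.13% of all genes were), and *Adgrg1* and *Slamf1* were lower in each (4.80% of all genes were). The intervals were wide for the rare transcripts: that of *Esam* ran from -1.39 to 1.41 and that of *Procr* from -1.07 to 1.48 on the log2 scale. Their signs rested on single libraries: without WT replicate 1 the log2 fold changes were -0.50 and -0.24, and that of *Esam* was also negative without Kdm6bΔ/+ replicate 2 (-0.26) and without Kdm6bΔ/+ replicate 3 (-0.045).

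Against WT, the double mutant had 0 of the 10 genes called by edgeR and 0 by DESeq2, where 34 of all 15825 genes (0.215%) were called by edgeR. The 2 at an unadjusted p under 0.05 were *Slamf1* (log2 fold change 1.06, SE 0.33) and *Cd34* (-0.20), against 6.79% of all genes. This count was 1 without WT replicate 3 or without double mutant replicate 1, 3 without WT replicate 2, and 4 with the replicate block. Y-linked transcripts were found in 3 of 3 double mutant and 0 of 3 WT libraries, so sex cannot be told apart from genotype between these 2 groups. With a term for them in the fit of all 4 genotypes, the median log2 fold change over the 10 genes was 0.18. It was 0.33 in the fit of all 4 genotypes without that term. *Esam*, *Slamf1* and *Ly6a* were higher in each double mutant library than in each WT library (6.68% of all genes were), and *Cd34* was lower (6.87% of all genes were). These comparisons do not show that the double mutant equals WT: the 95% interval reached 1.78 for *Slamf1*, 2.37 for *Esam* and 2.10 for *Procr*. Markers of other cells also moved in this comparison: of 10 erythroid genes 3 were called lower and 6 were lower at an unadjusted p under 0.05 (median log2 fold change -0.93), of 8 stromal genes 4 were higher at that level (median 0.58), and of 9 T and NK cell genes 4 were lower (median -0.52). Of 8 megakaryocyte genes tested 4 were higher at that level (median 0.72), and 1, *Ppbp*, was called higher. Of 14 endothelial genes tested 4 were higher at that level (median 0.84), and 0 genes of either list were lower. The part of all these genes in the values of the 10 was not tested.

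The transgene was also compared within the mice that lack 1 *Kdm6b* allele. Against Kdm6bΔ/+, edgeR called 0 of the 10 genes in Asxl1Y588XTg Kdm6bΔ/+, with 15 of all 15825 genes (0.0948%) called. DESeq2 called 1, *Slamf1*, where it called 87 of all genes higher and 17 lower. *Slamf1* had a log2 fold change of 1.70 (SE 0.32, edgeR adjusted p = 0.0667), *Esam* 1.05 (SE 0.31) and *Adgrg1* 0.32 (SE 0.14), the 3 genes at an unadjusted p under 0.05, against 12.2% of all genes. That count ran from 2 to 4 with 1 library left out. Each double mutant library stood above each Kdm6bΔ/+ library for *Slamf1* and *Esam* (9.32% of all genes), while *Podxl* (0.16, SE 0.28), *Ly6a* (-0.08, SE 0.19) and *Adgrl4* (0.08, SE 0.11) lay near 0. Lists of other genes also moved. At an unadjusted p under 0.05, 8 of 8 megakaryocyte genes were higher (median log2 fold change 0.79, *Itga2b* called). So were 5 of 14 endothelial genes (median 0.79) and 7 of 12 HSC genes not used as surface markers (median 0.65). Of 21 other surface markers used for stem cells 7 were higher at that level (median 0.16), *Itga2b* being called in this list too. In these lists 0 were lower, whereas 5 of 16 interferon-stimulated genes were lower and 0 higher. Of 18 other adhesion G protein-coupled receptors 6 were higher and 2 lower. Of 9 other junctional adhesion genes 3 were higher and 1, *Tjp1*, was lower and called. The part of these genes in the values above was not tested.

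Whether the deletion acts differently on the 2 backgrounds is given by the interaction, the log2 fold change of the deletion on the Asxl1Y588XTg background minus that on the WT background. By edgeR 0 of the 10 genes were called, where 2 of all 15825 genes (0.0126%) were. DESeq2 called 2, *Podxl* and *Ly6a*, where it called 5 of all genes higher and 61 lower. At an unadjusted p under 0.05 stood 6 of the 10 (*Procr*, *Esam*, *Podxl*, *Adgrg1*, *Adgrl4* and *Ly6a*), each negative, against 6.87% of all genes. The largest values were those of *Podxl*, -2.69 (SE 0.47, edgeR adjusted p = 0.140), and *Ly6a*, -2.53 (SE 0.52, edgeR adjusted p = 0.192). *Slamf1*, which was called in the double mutant against Asxl1Y588XTg, was not among them, with an interaction of -0.31 and a 95% interval from -1.20 to 0.58. Without the expression filter edgeR called 6 of the 10 genes, where it called 79 of all 32704 genes tested higher and 179 lower. Without Asxl1Y588XTg replicate 3 it called 1, *Podxl*, where it called 2 of all 15825 genes higher and 8 lower.

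Relatives of the 10 genes were followed by family. Of all 15825 genes, 9.35% stood at an unadjusted p under 0.05 in Asxl1Y588XTg against WT and 15.4% in the double mutant against Asxl1Y588XTg, in either direction, and the counts at that level here and in the other lists are to be read beside those shares. Of 7 other SLAM family genes and of 7 other Ly6 family genes tested, 0 were called in Asxl1Y588XTg against WT and 0 in the double mutant against Asxl1Y588XTg, by edgeR or by DESeq2. At an unadjusted p under 0.05 stood 1 gene of each family in the first comparison and 1 Ly6 gene in the second. Of 18 other adhesion G protein-coupled receptors, 0 rose in Asxl1Y588XTg by edgeR (4 were higher at an unadjusted p under 0.05, and DESeq2 called 3), and *Adgra3* (log2 fold change -0.80) and *Adgrg2* (-1.61) fell in the double mutant against Asxl1Y588XTg. Of 6 other sialomucin and mucin-like genes, *Muc1* (2.38) and *Muc13* (1.03), both epithelial-type mucins, rose in Asxl1Y588XTg and fell in the double mutant against it (-2.12 and -0.77). Of 8 other genes of the protein C pathway, 0 rose by edgeR (2 were higher at an unadjusted p under 0.05, and DESeq2 called 2), and *Pros1*, which encodes the cofactor protein S, fell in the double mutant (-0.79). Among genes of junctional adhesion other than *Esam*, *F11r* (2.55) and *Jam2* (2.35), which encode relatives of ESAM, rose in Asxl1Y588XTg and fell in the double mutant (-1.66 and -1.81). The SLAM and Ly6 relatives thus had no call in these comparisons, whereas these junctional genes had one in both. As both comparisons share the Asxl1Y588XTg libraries, the calls in both are not independent.

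Other markers of stem cells were compared beside the 10 genes, in lists likewise chosen with earlier results of these data known. Of 12 HSC genes that are not used as surface markers, most with products inside the cell or the nucleus, 9 rose in Asxl1Y588XTg against WT, with *Fgd5* (log2 fold change 2.53), *Mecom* (1.99) and *Hlf* (1.26) as examples, and 8 fell in the double mutant against Asxl1Y588XTg, including *Fgd5* (-1.65) and *Mecom* (-1.55). The median of that list was 1.502 in the first comparison, beside 1.54 for the surface genes, and -1.24 in the second. Of 21 other surface markers used for stem cells, 4 rose in Asxl1Y588XTg, among them *Neo1* (2.41), *Selp* (1.52) and *Tek* (1.81), and 17 were not called. At an unadjusted p under 0.05, 9 of the 21 were higher and 0 lower, and DESeq2 called 5. In the double mutant against Asxl1Y588XTg 3 of the 21 fell, *Neo1* (-1.39), *Selp* (-1.52) and *Tek* (-1.39). In that comparison 9 were lower and 1 higher at an unadjusted p under 0.05, and DESeq2 called 6 lower. The medians of this list were 0.39 and -0.27, nearer to 0 than those of the 10 genes. Of 15 genes that mark progenitors, 0 were called in either comparison by edgeR or DESeq2 (at an unadjusted p under 0.05, 2 were lower in the first and 1 higher in the second). Of 14 cell cycle genes 0 were called in either comparison by edgeR or DESeq2, with 3 lower in the first and 2 higher in the second at an unadjusted p under 0.05. Of 16 interferon-stimulated genes edgeR called 0 in either comparison, while at an unadjusted p under 0.05 stood 4 higher in the first and 8 lower in the second, and DESeq2 called 1 and 4. The median log2 fold change of the interferon list was -1.21 in the double mutant against Asxl1Y588XTg.

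Since many of the 10 genes are also used by endothelial cells and some by megakaryocytes, markers of those cells were read beside them. The lists share *Vwf*, which HSCs also express. The summed level of 15 endothelial genes was 132 to 162 CPM in WT, 137 to 147 in Kdm6bΔ/+, 262 to 481 in Asxl1Y588XTg and 180 to 228 in Asxl1Y588XTg Kdm6bΔ/+. *Vwf* had 450 to 1095 raw counts in WT and 2146 to 5811 in Asxl1Y588XTg, and without it the sums were 102 to 108 CPM in WT, 104 to 120 in Kdm6bΔ/+, 138 to 160.3 in Asxl1Y588XTg and 117 to 129 in the double mutant. Of the 14 endothelial genes tested, 2 were called by edgeR, *Cldn5* (log2 fold change 2.71) and *Tie1* (1.34), which rose in Asxl1Y588XTg and fell in the double mutant against it (-1.91 and -0.89). DESeq2 called 4 in the first comparison, *Kdr* and *Vwf* beside these, and the same 2 in the second. The list as a whole had a median log2 fold change of 1.33 in Asxl1Y588XTg against WT, 0.038 in the double mutant against Asxl1Y588XTg and 0.84 in the double mutant against WT. Levels within the endothelial list differed widely. *Pecam1* had 786 to 1256 raw counts and *Tie1* had 227 to 890 over the 12 libraries. *Cdh5* had 4 to 7 raw counts in WT and 8 to 34 in Asxl1Y588XTg, with 23 to 33 in the double mutant. *Sox17* had 0 to 3 in every library. The *Cdh5* counts of the double mutant thus lay within the range of Asxl1Y588XTg, but only through Asxl1Y588XTg replicate 1. Asxl1Y588XTg replicates 1 to 3 had 34, 10 and 8 raw counts, and Kdm6bΔ/+ had 1, 14 and 14. The sum of 10 megakaryocyte genes was 96.5 to 169 CPM in WT, 98.2 to 122 in Kdm6bΔ/+, 289 to 751 in Asxl1Y588XTg and 183 to 278 in the double mutant, and without *Vwf* it was 68.5 to 115, 73.8 to 89.1, 165 to 418 and 120 to 171 in the same order. Of 8 megakaryocyte genes tested, edgeR called 1 higher in Asxl1Y588XTg and 0 in the double mutant against it, with medians of 1.296 and -0.44. Asxl1Y588XTg replicate 2, the highest for the megakaryocyte sum, was also the highest library for *Esam*, *Podxl*, *Emcn*, *Adgrg1* and *Adgrl4*. The part of endothelial or megakaryocyte transcripts in the changes of the 10 genes was not tested. Lists for stromal cells, erythroid cells, mast cells with basophils, monocytes with macrophages, neutrophils, T with NK cells and B cells had 0 genes called in either of these comparisons by edgeR. At an unadjusted p under 0.05 they had 0 in the first and at most 1 each in the second, and DESeq2 called 0 in the first and 1 erythroid gene in the second. In the sums of 3 of them Asxl1Y588XTg replicate 1 stood apart from the other 2 Asxl1Y588XTg libraries, as given for *Ly6a*. Its B cell sum still lay within the WT range of 77.4 to 159 CPM. The erythroid sum of Asxl1Y588XTg replicate 3 was 877 CPM, against 495 and 458 in replicates 1 and 2. The stromal sum of double mutant replicate 3 was 185 CPM, against 102 and 92.0 in replicates 1 and 2.

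**Figure D4:**
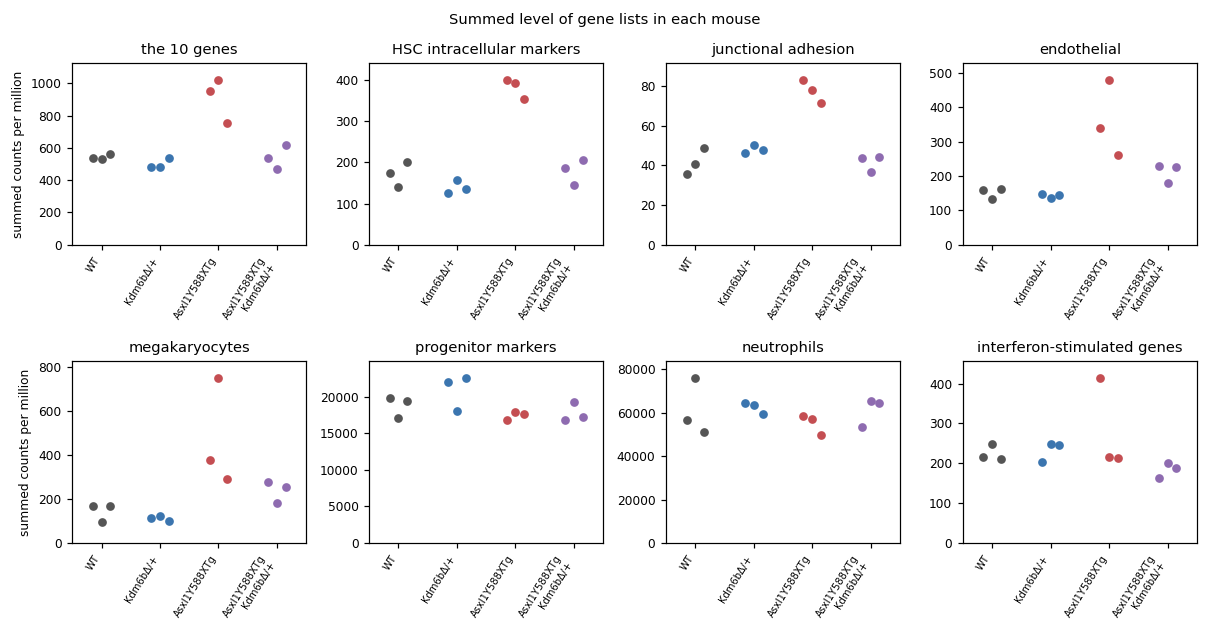
Summed CPM (vertical axes, each from 0) of the 10 genes and of 7 other gene lists in each mouse of the 4 genotypes. The sums of the 10 genes, of the HSC intracellular markers (those 12 genes) and of the junctional adhesion, endothelial and megakaryocyte lists are highest in Asxl1Y588XTg, while those of progenitor markers and neutrophils overlap between Asxl1Y588XTg and WT and the interferon list is high in 1 Asxl1Y588XTg mouse.

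The genes whose log2 CPM ran most like each of the 10 over the 12 libraries were found among the 9887 genes that averaged at least 100 normalized counts. As the libraries share genotype and depth, the correlations describe the pattern only. *Procr* ran closest to *Myct1* (Pearson r 0.97) and *Dst* (0.96), *Esam* to *Rarg* (0.97) and *Cdc42bpb* (0.96), and *Podxl* to *St3gal1* (0.97) and *Clca3a1* (0.96). *Slamf1* ran closest to *Mtss2* (0.95) and *Fgd5* (0.95), *Adgrg1* to *Pear1* (0.98) and *Nynrin* (0.98), *Adgrl4* to *Rbpms* (0.97) and *Bend4* (0.95), and *Ly6a* to *Eps8* (0.95) and *Cd38* (0.94). By Pearson r, the genes that did not separate Asxl1Y588XTg from WT had looser neighbours. These were *Erap1* (0.89) and *Galk2* (0.85) for *Cd34*, and *Cd200r1* (0.93) and *Ccdc77* (0.85) for *Cd48*. The same held for *Emcn*, with *Bicd1* (0.90) and *Tgm2* (0.88). By Spearman rho, a correlation of ranks, this order did not hold throughout. *Cd48* with *Cd200r1* had 0.86, as had *Podxl* with *St3gal1*. *Cd34* with *Erap1* (0.81) exceeded *Podxl* with *Clca3a1* (0.73) and *Ly6a* with *Cd38* (0.68).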

How the data were processed

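One library per mouse was made from LK cells of 12 mice, 3 of each genotype. LK cells were taken by lineage depletion and cKit beads. The labels name an NEB Ultra kit and a NextSeq sequencer, whereas the methods describe a KAPA stranded kit and a HiSeq sequencer. Per the labels, reads of 50 bases were processed with FastQC, Trimmomatic, STAR, and HTSeq on mm10. The authors deposited raw counts of 55291 genes without normalization. The annotation and strand of counting are not given in the sources used here. No per-sample column was left out.

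Counts were analysed in R 4.3.3 with edgeR 4.0.16 and DESeq2 1.42.0. The filterByExpr function with the 4 genotypes as groups kept 15825 genes. Each pairwise comparison was fitted to its 6 libraries with TMM scaling and edgeR's robust quasi-likelihood test, and the interaction to all 12. Benjamini-Hochberg adjustment ran over all genes tested, and calls needed a fold change above 1.5 with an adjusted p under 0.05. Standard errors were derived from the F statistic. Normalized counts and CPM were scaled with TMM factors of all 12 libraries, and levels per length used GENCODE vM21 exons. The steps were tested on simulated counts. The p-values measure the spread between mice. Depth ran from 14451522 to 23482563 reads, and rare transcripts are limited by it most.

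The 10 genes and all lists were chosen with earlier results of these data known. Lists covered sialomucins, SLAM, adhesion receptor, Ly6, protein C, and junctional adhesion genes, other stem-cell surface, HSC intracellular, and progenitor markers, genes of the cell cycle and of the interferon response, and markers of megakaryocytes, erythroid cells, basophils with mast cells, macrophages with monocytes, neutrophils, NK with T cells, B cells, stroma, and endothelium. Named were the 10 genes, *Kdm6b* and *Asxl1*, list genes that were called, and the 2 genes most like each of the 10. Some called list genes are not reported here. Those named as cell markers (*Kit*, *Vwf*, *Pecam1*, *Cdh5*, *Sox17*) were chosen after their values were seen. Alternatives were DESeq2, all 4 genotypes in 1 fit, RLE scaling, no expression filter, the replicate number as a block, a filter at a mean count of 50, a term for Y-linked transcripts, and each library left out. TMM over all 12 libraries was added after the data were seen. Replicate numbers did not pair the libraries: deviations of libraries with the same number had a median r of -0.04 over 18 pairs, from -0.12 to 0.08.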

Additional observations from a re-analysis of the deposited data

Results flagged for a closer look

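*Ly6a* is listed because its libraries with the *Kdm6b* deletion all stood apart from their controls, in opposite directions on the 2 backgrounds. Each Kdm6bΔ/+ library (86.7 to 112 normalized counts) stood above each WT library (22.9 to 75.4), whereas each Asxl1Y588XTg Kdm6bΔ/+ library (93.7 to 99.0) stood below each Asxl1Y588XTg library (180.3 to 442). The interaction had a log2 value of -2.53 (SE 0.52, 95% interval from -3.65 to -1.40) and did not pass over all genes tested (edgeR adjusted p = 0.192). No other gene of the 10 showed such a split.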

How the results depend on the processing

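In Asxl1Y588XTg against WT, 5 genes were called, and between 4 and 7 were under the alternatives that kept all libraries. Leaving out 1 library at a time gave 3 to 6 in that comparison, 1 to 5 in Asxl1Y588XTg Kdm6bΔ/+ against Asxl1Y588XTg (3 with all libraries), and 0 to 1 for the interaction (0 with all). In the second comparison the count was 7 with DESeq2, 7 without the expression filter, and 5 with all 4 genotypes in 1 fit. Calls over all genes moved as well. Called lower were 391 of 15825 genes with DESeq2, 665 of 32704 without the filter, and 150 of 15825 in 1 fit. With the replicate block 1 of the 10 genes was called in the second comparison. Replicate block fits gave 4 in Asxl1Y588XTg against WT and 0 in the other comparisons, so the block moved no other count by over 1.5 times. As the numbers did not pair the libraries, that loss is not read as a weaker effect. For the interaction the count was 2 with DESeq2 and 6 without the expression filter, and in Asxl1Y588XTg Kdm6bΔ/+ against Kdm6bΔ/+ (0 called) it was 1 with DESeq2 and 1 without the filter. In the comparisons of Kdm6bΔ/+ and of the double mutant with WT, 0 genes were called under each alternative. Why the counts moved was not tested.

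Signs changed for values near 0 that were not called. With the term for Y-linked transcripts the log2 fold change was -0.015 for *Cd34* in Asxl1Y588XTg against WT, -0.026 for *Adgrg1* in the double mutant against WT, and -0.036 for *Adgrl4* in the double mutant against Kdm6bΔ/+. With 1 library left out, values in Asxl1Y588XTg against WT ran from -0.051 to 0.041 for *Cd34* and from -0.18 to 0.082 for *Cd48*, and *Cd48* ran from -0.19 to 0.070 in the double mutant against Asxl1Y588XTg. In Kdm6bΔ/+ against WT they ran from -0.24 to 0.56 for *Procr*, from -0.50 to 0.41 for *Esam*, from -0.090 to 0.036 for *Cd34*, and from -0.28 to 0.33 for *Emcn*. In the double mutant against WT they ran from -0.019 to 0.34 for *Emcn* and from -0.032 to 0.27 for *Adgrg1*. Against Kdm6bΔ/+ they ran from -0.075 to 0.37 for *Podxl*, from -0.13 to 0.49 for *Emcn*, from -0.0065 to 0.22 for *Adgrl4*, and from -0.17 to 0.0016 for *Ly6a*. Of the values of single genes under alternatives, 781 kept their sign and their side of the threshold, 42 passed it, 28 lost it, and 23 changed sign. *Emcn* was not tested with a mean count of at least 50.

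With 3 mice per genotype an exact permutation test of 1 gene cannot go below 0.10, so single genes rest on the spread that edgeR shares over genes. A fit without 1 library leaves 2 mice in that genotype.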
